A study of Oryza sativa with 9 samples.

Results

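MYB transcription factor genes were followed in leaves of submerged rice seedlings sprayed with paclobutrazol or gibberellic acid. The members were the entries of the deposited expression table whose description names MYB and whose mean over the 9 libraries was at least 0.5 FPKM (a level scaled to the length of the gene and the mapped fragments of the library), apart from 3 loci set aside by the selection rule. Of 111 entries described as MYB, 63 met these terms, out of 22946 entries that passed the same level limit and 38652 in the whole table. A further 47 were under 0.5 FPKM and 1, *LOC_Os01g74020*, was among the loci set aside, at a mean of 0.241 FPKM. The other set-aside loci, *LOC_Os01g59660* and *LOC_Os08g06110*, had no description in the table. The members closest above the limit were *LOC_Os05g37050* at 0.582 FPKM and *LOC_Os11g10130* at 0.584 FPKM, and the closest below it were *LOC_Os01g03720* at 0.4996 FPKM and *LOC_Os01g12860* at 0.375 FPKM.

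IR64 is an *indica* rice variety that does not tolerate submergence and lacks the *Sub1A* gene. Seedlings 20 days after germination received 25 mL of paclobutrazol at 200 mg per L (PBT), of gibberellic acid at 100 mg per L (GAT), or of solvent alone at 0.1% (Control). The sample labels name that solvent as ethanol, whereas the methods of the study name methanol. By those methods, paclobutrazol and gibberellic acid were first dissolved in ethanol. If the Control solvent was methanol, a change shared by both sprays against Control cannot be told apart from a difference in solvent. Paclobutrazol is an inhibitor of gibberellin biosynthesis, so the 2 sprays act on the same hormone from opposite sides. The plants went under 100 cm of water 2 days after the spray, and leaves were taken after 4 days, with 3 libraries for each group. Every library came from submerged plants, so the comparisons are between sprays under water and none shows the effect of submergence itself. In whole leaves, fewer cells of a type and less RNA per cell cannot be told apart.

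MYB proteins bind DNA through 1 or more copies of a helix-turn-helix repeat and form one of the largest families of plant transcription factors. Members with several repeats include regulators of phenylpropanoid synthesis, secondary cell walls, anther development and responses to drought, cold and jasmonate. Members with 1 repeat include factors of the circadian clock and of sugar signalling, and the related GARP factors include regulators of phosphate starvation and chloroplast development. In low oxygen, rice draws on stored starch through a route in which the kinases CIPK15 and SnRK1A act on the MYB factor MYBS1 at alpha-amylase promoters.

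Members were spread over all 12 rice chromosomes by their locus names, with 14 on chromosome 1, 9 on chromosome 5 and 8 on chromosome 2. The table describes 48 of them as MYB family transcription factors, 7 by a myb-like DNA-binding domain and 8 by other MYB terms. It assigned 32 of them to the plant MYB orthology group of KEGG, which held no other tested entry. GO terms for DNA binding stood beside 44 members and for the nucleus beside 43. Their mean level ran from 0.582 to 108 FPKM with a median of 5.08 FPKM, close to the median of 4.74 FPKM over all tested entries. The summed level of the 63 members was 793 to 838 FPKM in PBT libraries and 603 to 721 FPKM in GAT libraries, against 508 to 567 FPKM in Control libraries, so the 3 groups did not overlap. Without the most abundant member, *LOC_Os01g64360*, the sums were 572 to 630 FPKM in PBT and 554 to 682 FPKM in GAT, against 430 to 503 FPKM in Control. Without that gene, the sums of PBT and GAT overlapped.

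**Figure D1:**
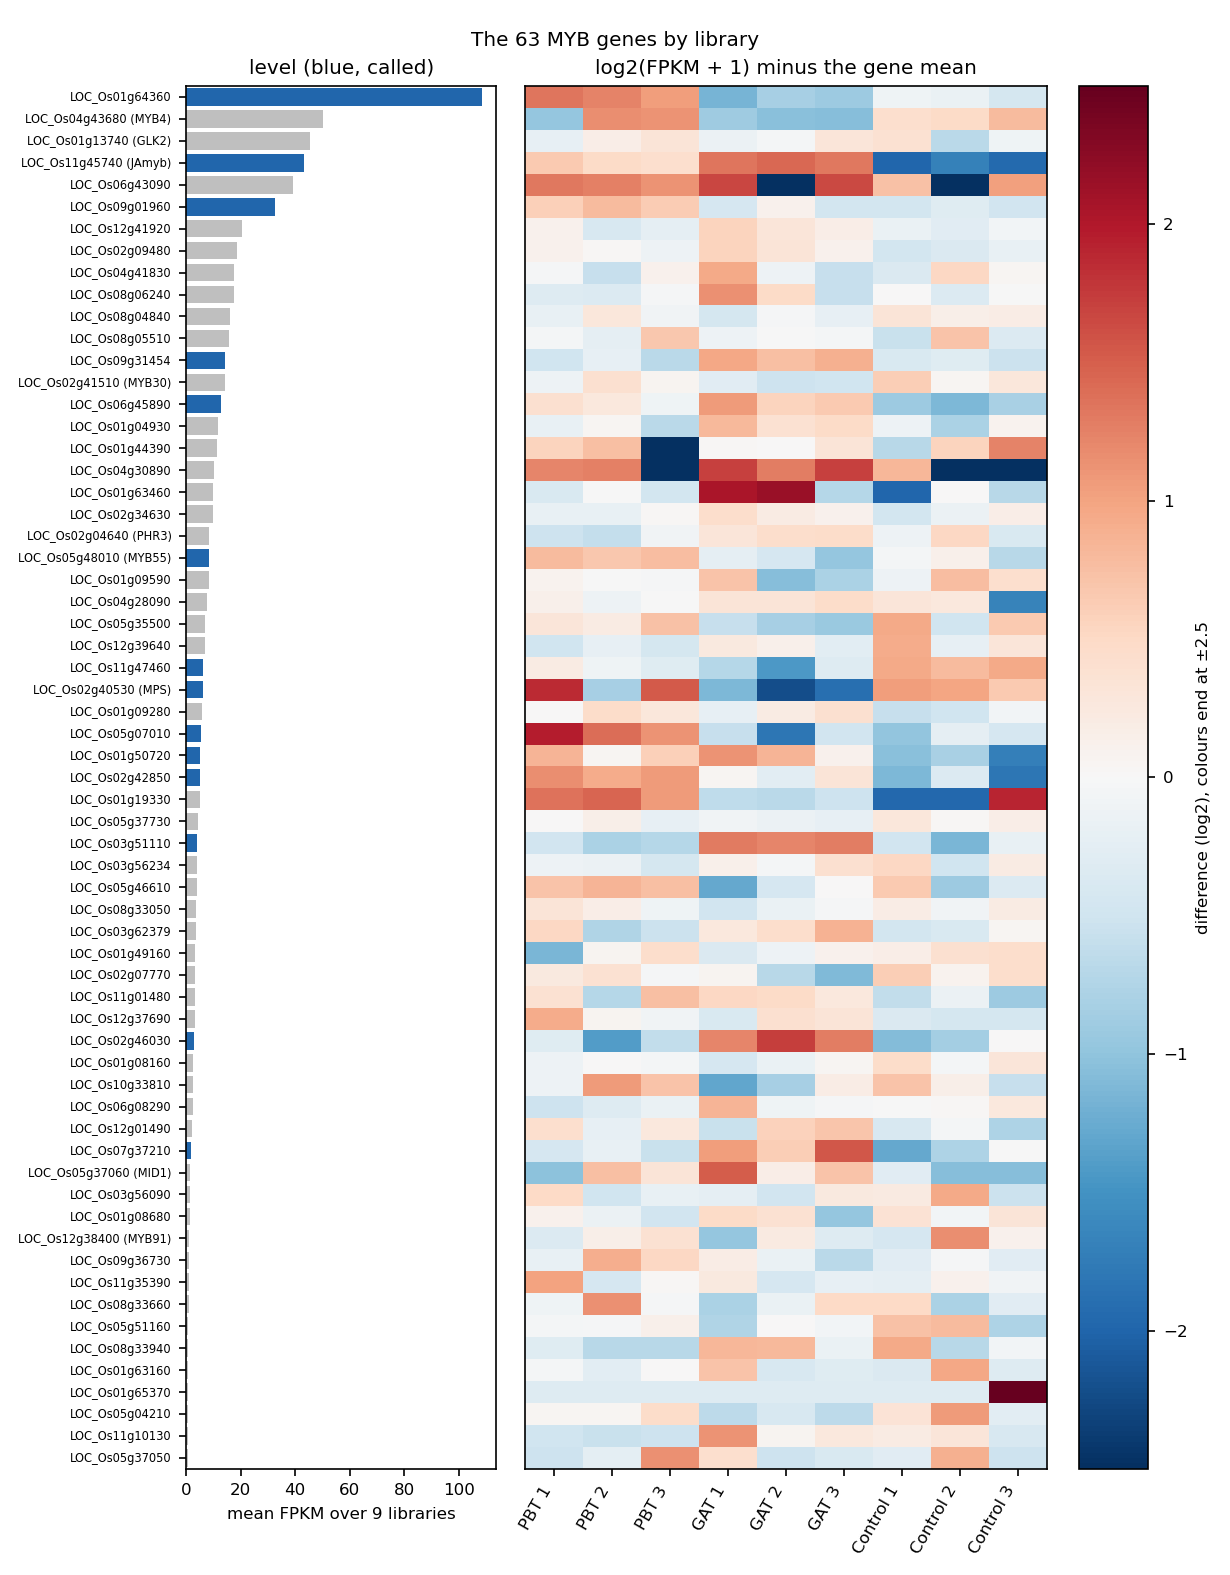
The 63 MYB genes from the most to the least abundant. Bars give the mean FPKM over the 9 libraries (blue, called in at least 1 comparison), and the colours give each library's log2(FPKM + 1) minus the mean of that gene. The top bar, *LOC_Os01g64360*, reaches 108 FPKM, and its 3 PBT libraries are all above the mean of the gene, as are the 3 GAT libraries of *JAmyb*.

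The 9 libraries summed to between 432165 and 471800 FPKM, and 14322 to 17529 entries were listed at 0 in each. Leaf markers were abundant throughout, with RBCS and chlorophyll a/b-binding genes (4 entries for the 5 listed loci) summing to 10843 to 11621 FPKM in PBT and 7933 to 8166 FPKM in GAT, against 17476 to 18370 FPKM in Control. The lowest PBT sum is that of library 2, where 1 of these genes, *LOC_Os01g41710*, was listed at 0 beside 1060 and 1099 FPKM in PBT libraries 1 and 3. The 1 root marker found of 3 listed, the silicon transporter *Lsi1*, was at 20.2 to 22.3 FPKM in PBT and 15.9 to 18.6 FPKM in GAT, against 20.2 to 27.2 FPKM in Control. The stem base marker *OSH15*, the 1 found of 2 listed, was listed at 0 in every library. The leaf marker sum thus differed between the groups, and its part in the MYB results was not tested.

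Calls (DEGs) were taken from 1 limma fit to all 22946 entries, where the adjusted p had to be under 0.05 and the log2 fold change had to reach 1 in size. The fold changes are on the log2(FPKM + 1) scale, which understates the change of low genes. In GAT/Control, 9 of the 63 members were called, 7 higher and 2 lower, which is 14.3% beside 8.42% of all tested entries (4.71% higher and 3.72% lower). In PBT/Control, 7 were called, 7 higher and 0 lower, which is 11.1% beside 4.34% of all tested entries (2.87% higher and 1.47% lower). Without the limits on fold and adjusted p, 11 members had an unadjusted p under 0.05 in PBT/Control, in either direction. The share of all tested entries at that limit was not computed, so this count has no background beside it. In PBT/GAT, 8 were called, 4 higher and 4 lower, which is 12.7% beside 6.3% of all tested entries (3.48% higher and 2.82% lower). By the adjusted p alone, 11 members passed in GAT/Control (12% of all tested entries), 7 in PBT/Control (6.37%), while PBT/GAT had 10 (9.37%). The comparisons share libraries, so their counts are not independent of each other. At least 1 call was made for 14 members (22.2%, beside 12.3% of all tested entries), and of these 14, 3 were called against Control under both sprays, 5 in GAT/Control as well as PBT/GAT, 2 in PBT/Control as well as PBT/GAT, and 0 in all 3. The count in PBT/Control was 4 when PBT library 1 or Control library 2 was left out, and the count in PBT/GAT was 5 when PBT library 3 was left out. Over all tested entries, PBT/Control had 529 higher and 267 lower without PBT library 1, and 543 and 298 without Control library 2. With all libraries these were 659 and 337. PBT/GAT had 604 higher and 510 lower without PBT library 3, against 799 and 647 with all libraries.

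Abundant members held most of the calls. Of the 32 members with a mean of at least 5 FPKM, 11 were called (34.4%, beside 15.3% of all tested entries at that level), and of the 31 below it, 3 were called (9.68%, beside 9.46%). Libraries of the 2 groups did not overlap for 27 members in GAT/Control (42.9%, beside 29.5% of all tested entries), 16 of them higher (16.8% of all entries) and 11 lower (12.8%). For PBT/GAT there were 28 (44.4%, beside 30%), 12 higher (12.6%) and 16 lower (17.4%). For PBT/Control there were 17 (27%, beside 26.3%), 13 higher (12.9%) and 4 lower (13.4%), a share near that of all entries but mostly upward. The mean was highest in PBT for 20 members (31.7%, beside 26.2% of all entries), in GAT for 25 (39.7%, beside 40.2%) and in Control for 18 (28.6%, beside 33.6%). The median log2 fold change of the members was 0.04 in GAT/Control (0.03 over all tested entries), 0.00 for PBT against Control (−0.04) and 0.07 for PBT against GAT (−0.07), so the family as a whole sat near 0 in each comparison.

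**Figure D2:**
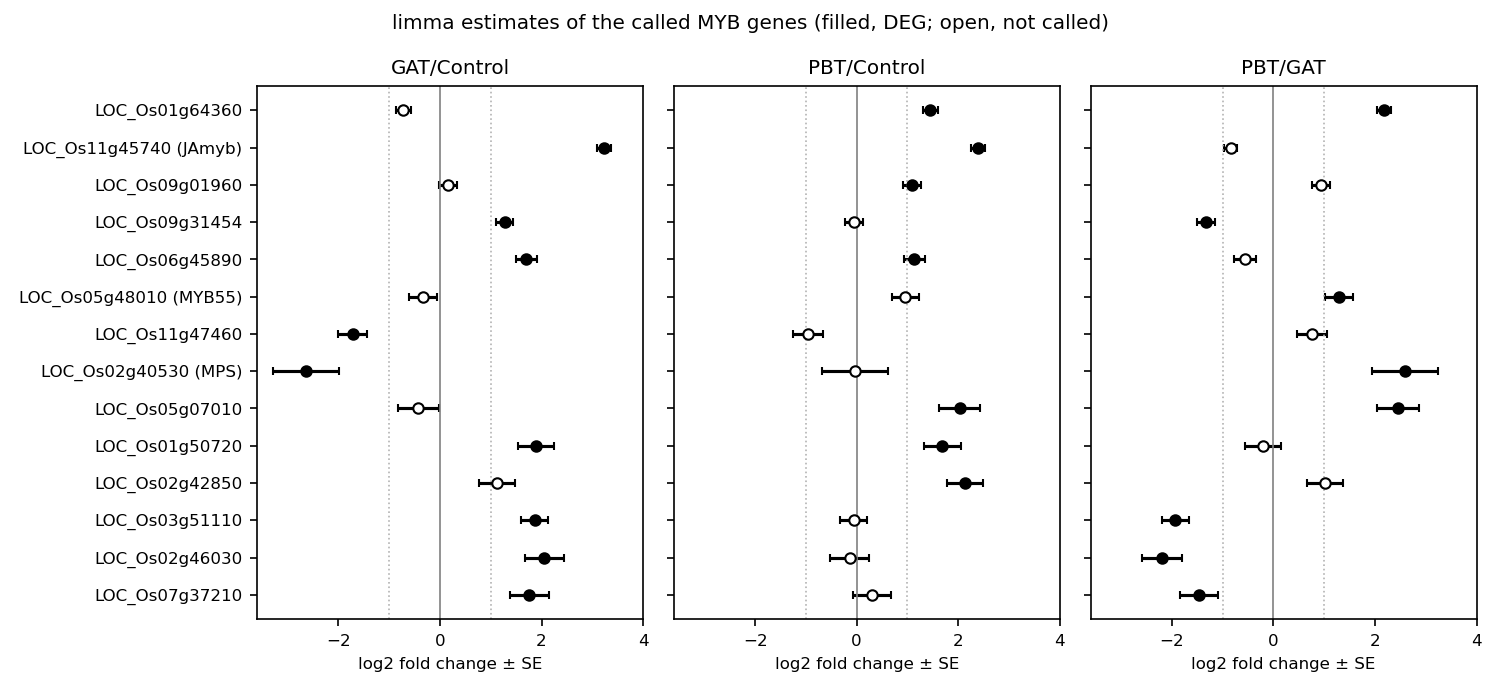
log2 fold change (x axis, limma estimate ± SE) of the 14 called MYB genes, with a panel for each comparison, from the most abundant gene at the top. Filled points are DEGs, and dotted lines mark a log2 fold change of 1 in size. *LOC_Os11g45740* (*JAmyb*) lies far to the right in both comparisons with Control, and *LOC_Os02g40530* (*MPS*) lies to the left in GAT/Control and to the right in PBT/GAT.

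Both sprays lay above Control for *JAmyb*, *LOC_Os06g45890* and *LOC_Os01g50720*, the members called in both comparisons with Control. *JAmyb* (*LOC_Os11g45740*) encodes a rice MYB factor known for its induction by jasmonic acid, and the table lists it under jasmonic acid and gibberellic acid signalling and stamen development. It was at 47.5, 42.4 and 40.4 FPKM in PBT libraries and 77.3, 83.0 and 75.8 FPKM in GAT libraries, against 6.82, 8.58 and 7.03 FPKM in Control libraries. The 3 groups did not overlap, and GAT was the highest. *JAmyb* rose in GAT/Control with a log2 fold change of 3.24 ± 0.14 (SE, adjusted p = 5.18e-06), the largest rise of any member in that comparison. It also rose in PBT/Control by 2.39 ± 0.14 (adjusted p = 8.07e-05), again the largest of the members. The difference of −0.84 ± 0.14 in PBT/GAT had an adjusted p of 0.00651 and stayed under the fold limit, with every PBT library below every GAT library. Both calls held in all 9 fits that left out 1 library.

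The other genes raised under both sprays carry little annotation. *LOC_Os06g45890*, listed under phloem and xylem development, was at 15.0, 13.5 and 10.2 FPKM in PBT and 24.2, 16.7 and 17.9 FPKM in GAT, against 5.45, 4.52 and 5.92 FPKM in Control. Its log2 fold change was 1.70 ± 0.21 in GAT/Control (adjusted p = 0.00113) and 1.14 ± 0.21 in PBT/Control (adjusted p = 0.0152). No library of either spray overlapped Control. The PBT/Control call was lost without PBT library 1 (adjusted p = 0.0547), PBT library 2 (0.0604) or Control library 2 (0.0506). *LOC_Os01g50720*, listed only as a nuclear DNA-binding factor, was at 8.2, 4.32 and 6.70 FPKM in PBT and 10.2, 8.24 and 4.52 FPKM in GAT, against 1.49, 1.90 and 0.564 FPKM in Control. Both sprays again lay wholly above Control, and they overlapped each other. It rose by 1.89 ± 0.36 in GAT/Control (adjusted p = 0.0104) and by 1.69 ± 0.36 in PBT/Control (adjusted p = 0.0277), while PBT/GAT gave −0.20 ± 0.36 (adjusted p = 0.798). Its PBT/Control call was lost without PBT library 1 (adjusted p = 0.102), PBT library 3 (0.0964) or Control library 1 (0.072), 2 (0.0507) or 3 (0.0907).

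**Figure D3:**
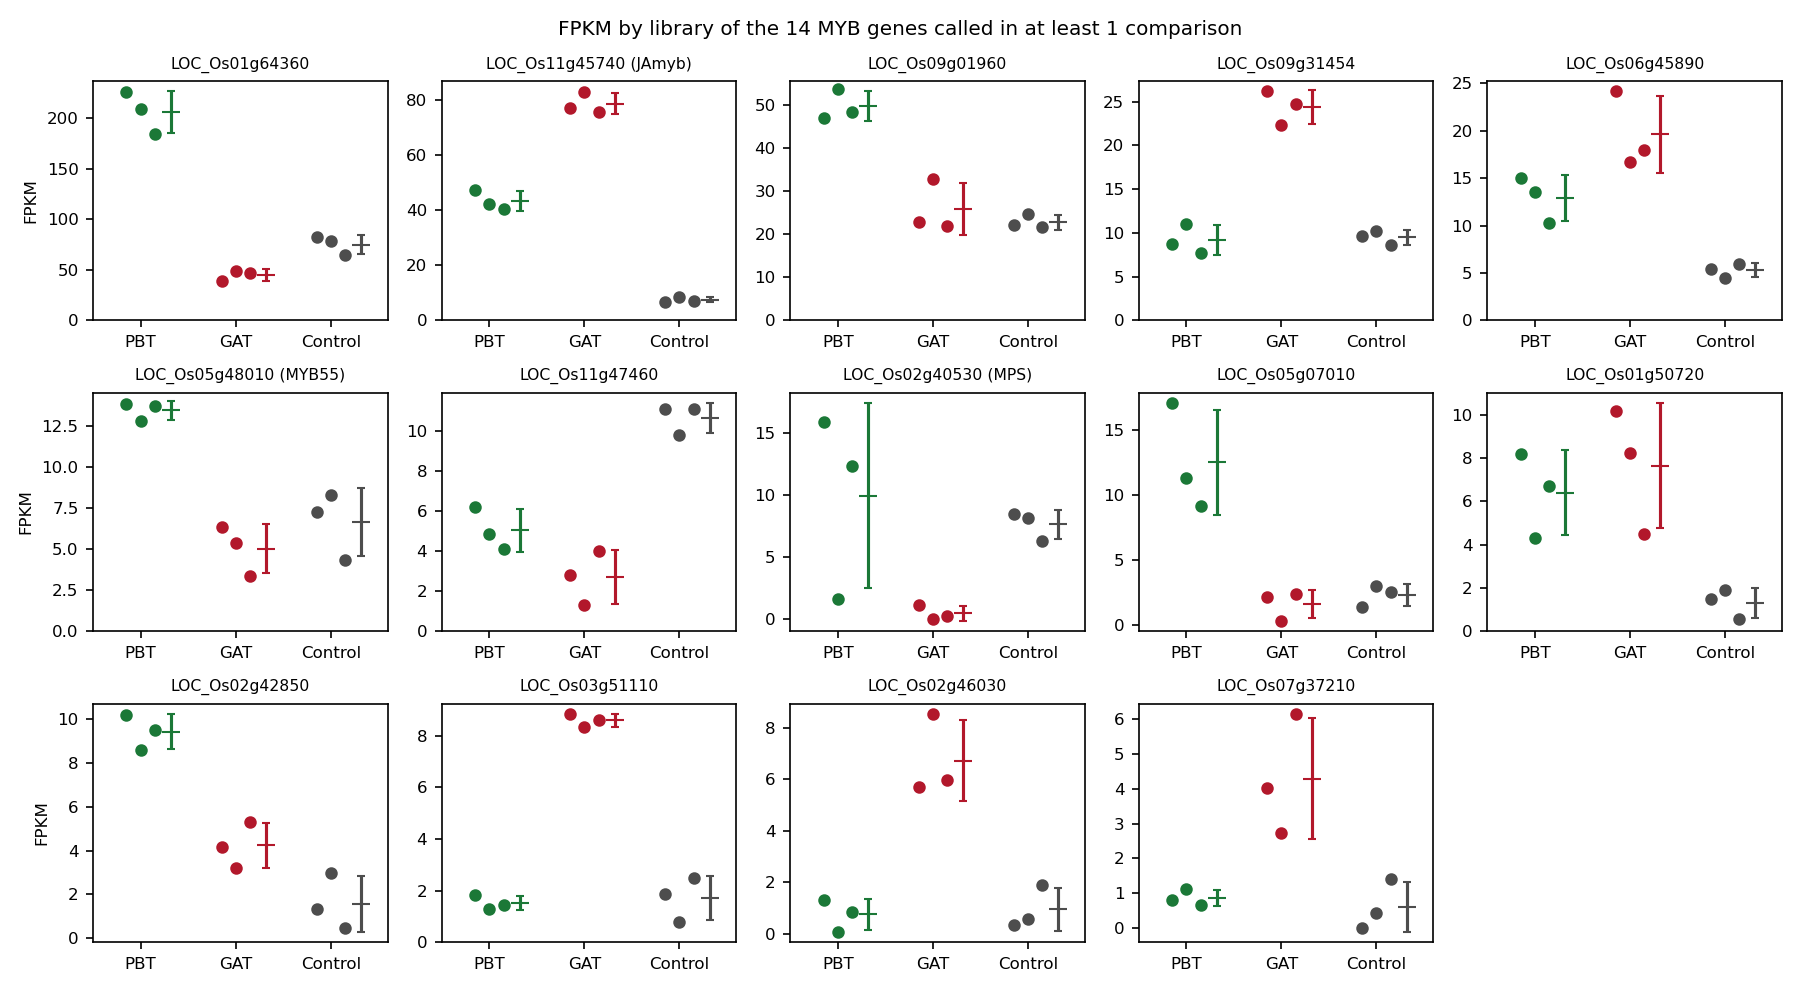
FPKM of each of the 14 called MYB genes (y axis, from 0 on a linear scale) in the 3 PBT, 3 GAT and 3 Control libraries. Points are libraries, and the bar beside them is the mean ± SD. *JAmyb* stands at 40.4 to 47.5 FPKM in PBT and 75.8 to 83.0 FPKM in GAT, above all Control libraries, while *LOC_Os01g64360* stands at 184 to 225 FPKM in PBT, above every other library.

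A second group of 4 genes was high in GAT libraries and close to Control in PBT libraries. *LOC_Os09g31454* was at 8.78, 11.0 and 7.75 FPKM in PBT and 26.2, 22.3 and 24.7 FPKM in GAT, against 9.68, 10.2 and 8.60 FPKM in Control. It rose by 1.27 ± 0.17 in GAT/Control (adjusted p = 0.00173) and was lower by −1.33 ± 0.17 in PBT/GAT (adjusted p = 0.00207). The table names it a MYB factor, yet its GO terms are those of a plasma membrane serine/threonine kinase and hold no DNA binding. *LOC_Os03g51110*, annotated to responses to gibberellin, jasmonic acid, ethylene, salt and water deprivation, was at 1.84, 1.29 and 1.45 FPKM in PBT and 8.83, 8.33 and 8.63 FPKM in GAT, against 1.87, 0.799 and 2.5 FPKM in Control. Its log2 fold change was 1.87 ± 0.27 in GAT/Control (adjusted p = 0.00244) and −1.93 ± 0.27 in PBT/GAT (adjusted p = 0.00301). For both genes all GAT libraries lay above the other 6, and all 4 calls held in each fit that left out 1 library.

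*LOC_Os02g46030* was assigned to the KEGG pathway of the plant circadian rhythm, where its orthology group is that of the clock factor LHY. It shares that group with *LOC_Os05g07010*, so the assignment alone does not name it as the rice *LHY* gene. It was at 1.31, 0.0829 and 0.853 FPKM in PBT and 5.70, 8.52 and 5.96 FPKM in GAT, against 0.351, 0.590 and 1.88 FPKM in Control. GAT again lay above all other libraries, with a log2 fold change of 2.06 ± 0.39 in GAT/Control (adjusted p = 0.00992) and −2.19 ± 0.39 in PBT/GAT (adjusted p = 0.00939). With a pseudocount of 0.1 in place of 1, its GAT/Control call was lost (adjusted p = 0.0575). *LOC_Os07g37210*, a nuclear DNA-binding factor by its GO terms, was at 0.813, 1.12 and 0.651 FPKM in PBT and 4.03, 2.72 and 6.14 FPKM in GAT, against 0.429 and 1.39 FPKM in Control libraries 2 and 3, with library 1 listed at 0. The GAT libraries did not overlap the others, and the estimates were 1.76 ± 0.38 in GAT/Control (adjusted p = 0.0183) and −1.46 ± 0.38 in PBT/GAT (adjusted p = 0.0467). Both calls changed with the processing. The GAT/Control call was lost without GAT library 1 (adjusted p = 0.0540) or 3 (0.0625) or Control library 1 (0.0531) or 2 (0.0598). The PBT/GAT call was lost without PBT library 1 (0.114), 2 (0.0965) or 3 (0.129), GAT library 1 (0.104), 2 (0.0552) or 3 (0.136), or Control library 2 (0.0713). With all libraries, the GAT/Control call was also lost with a pseudocount of 0.1 (0.0539) or only the 2 groups in the fit (0.0638). The PBT/GAT call was lost with a pseudocount of 0.1 (0.206) or 0.5 (0.0711), no filter (0.0855), quantile normalization (0.0505) or median scaling (0.0585).

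Genes high in PBT libraries included the most abundant member, *LOC_Os01g64360*, which has no GO term in the table. It was at 225, 208 and 184 FPKM in PBT and 38.7, 49.1 and 46.7 FPKM in GAT, against 82.2, 78.0 and 64.3 FPKM in Control. The order PBT, Control, GAT held for every library, with no overlap. *LOC_Os01g64360* rose by 1.45 ± 0.15 in PBT/Control (adjusted p = 9.00e-04) and by 2.18 ± 0.15 in PBT/GAT (adjusted p = 6.72e-05). In GAT/Control it was at −0.73 ± 0.15 with an adjusted p of 0.0139, past the p limit and short of the fold limit. The 2 calls held in all 9 fits that left out 1 library.

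*LOC_Os05g07010* is the other member in the circadian rhythm pathway, under the same LHY orthology group as *LOC_Os02g46030*. It was at 17.1, 11.3 and 9.20 FPKM in PBT and 2.11, 0.333 and 2.34 FPKM in GAT, against 1.37, 3.02 and 2.51 FPKM in Control. PBT lay above all other libraries, whereas GAT did so for *LOC_Os02g46030*. Its log2 fold change was 2.03 ± 0.40 in PBT/Control (adjusted p = 0.0211) and 2.45 ± 0.40 in PBT/GAT (adjusted p = 0.00710). The PBT/Control call was lost without PBT library 1 (adjusted p = 0.0836) or 2 (0.0695) or Control library 1 (0.0795), 2 (0.0519) or 3 (0.0681).

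*LOC_Os09g01960*, with the same hormone and salt terms as *LOC_Os03g51110*, was at 46.9, 53.7 and 48.4 FPKM in PBT and 22.8, 32.9 and 21.9 FPKM in GAT, against 22.0, 24.8 and 21.6 FPKM in Control. The PBT libraries lay above all others, while GAT and Control overlapped. It rose by 1.09 ± 0.17 in PBT/Control (adjusted p = 0.00749), and PBT/GAT gave 0.94 ± 0.17 (adjusted p = 0.0120), just under the fold limit. *LOC_Os02g42850*, annotated to red and far-red light phototransduction and the response to salicylic acid, was at 10.2, 8.58 and 9.51 FPKM in PBT and 4.18, 3.21 and 5.31 FPKM in GAT, against 1.32, 2.96 and 0.443 FPKM in Control. The groups formed 3 steps without overlap, of which PBT/Control was called at 2.14 ± 0.35 (adjusted p = 0.00884). The steps in GAT/Control (1.12 ± 0.35, adjusted p = 0.0786) and PBT/GAT (1.01 ± 0.35, adjusted p = 0.121) did not pass the adjusted p. *LOC_Os02g42850* and *LOC_Os01g50720* each share their locus name with at least 1 other entry. With such entries summed, their PBT/Control estimates were 1.96 (adjusted p = 0.00846) and 1.89 (adjusted p = 0.0105).

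*MYB55* (*LOC_Os05g48010*) encodes a factor that raises heat tolerance and amino acid levels when overexpressed in rice. It was at 13.8, 12.8 and 13.7 FPKM in PBT and 6.34, 5.39 and 3.40 FPKM in GAT, against 7.29, 8.33 and 4.32 FPKM in Control. PBT lay above the other groups, which overlapped. The call was made in PBT/GAT at 1.29 ± 0.27 (adjusted p = 0.0197), while PBT/Control gave 0.96 ± 0.27 (adjusted p = 0.0802). It was lost without PBT library 1 (adjusted p = 0.0656), 2 (0.0594) or 3 (0.0666) or GAT library 3 (0.0572).

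*MPS* (*LOC_Os02g40530*) and *LOC_Os11g47460* were the members that fell in GAT/Control. *MPS* (*MULTIPASS*) encodes a rice MYB factor that restrains growth and represses expansin genes. It was at 15.9, 1.60 and 12.3 FPKM in PBT and at 1.12 and 0.249 FPKM in GAT libraries 1 and 3, with GAT library 2 listed at 0, against 8.50, 8.12 and 6.30 FPKM in Control. All GAT libraries lay below the other 6, and PBT library 2 stood apart from its replicates. The log2 fold change was −2.63 ± 0.65 in GAT/Control (adjusted p = 0.0326), 2.6 ± 0.65 in PBT/GAT (adjusted p = 0.0413) and −0.04 ± 0.65 in PBT/Control (adjusted p = 0.997). The GAT/Control call was lost without GAT library 1 (adjusted p = 0.0614), 2 (0.103) or 3 (0.0901) or Control library 1 (0.104), 2 (0.103) or 3 (0.0850). The PBT/GAT call held only without PBT library 2, with an adjusted p of 0.00212, and was lost without PBT library 1 (0.124) or 3 (0.137), GAT library 1 (0.0729), 2 (0.122) or 3 (0.109), or Control library 1 (0.0739), 2 (0.0756) or 3 (0.0728).

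*LOC_Os11g47460*, a nuclear DNA-binding factor by its GO terms, was at 6.21, 4.86 and 4.10 FPKM in PBT and 2.83, 1.32 and 4.01 FPKM in GAT, against 11.1, 9.82 and 11.1 FPKM in Control. Control lay above both sprays. *LOC_Os11g47460* fell in GAT/Control by 1.72 on the log2 scale (SE 0.29, adjusted p = 0.00577), and that call held in all 9 fits that left out 1 library. PBT/Control gave −0.96 ± 0.29 (adjusted p = 0.101).

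Several GO terms were shared among the called members, and they were picked out after the values were seen. Of 14 members annotated to the response to salicylic acid, 7 were called in at least 1 comparison, beside 22.2% of all members and 12.3% of all tested entries. Of 9 annotated to the response to gibberellin, 4 were called, namely *LOC_Os09g01960*, *LOC_Os05g07010*, *LOC_Os03g51110* and *LOC_Os02g46030*. The called genes annotated to the response to jasmonic acid, ethylene, auxin and salt were the same 4. *JAmyb*, listed under jasmonic acid and gibberellic acid signalling and not under these response terms, is not counted among them. These 4 genes did not move one way. *LOC_Os03g51110* and *LOC_Os02g46030* rose in GAT/Control, and the others rose in PBT/Control. The plant MYB orthology group held 32 of the 63 members. Of these 32, 9 were called in at least 1 comparison, beside 22.2% of all members and 12.3% of all tested entries.

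Among the 49 members with no call were genes of known role. *MYB4* (*LOC_Os04g43680*), whose overexpression raises cold tolerance in *Arabidopsis*, was the second most abundant, at 20.6, 93.3 and 90.9 FPKM in PBT and 21.8, 19.6 and 19.2 FPKM in GAT, against 55.6, 57.5 and 72.1 FPKM in Control. All GAT libraries lay below Control, yet the log2 fold change of −1.56 ± 0.50 had an adjusted p of 0.0849, and PBT library 1 stood with GAT. *GLK2* (*LOC_Os01g13740*), a GARP factor of chloroplast development, was at 38.4, 49.8 and 55.8 FPKM in PBT and 39.9, 42.6 and 54.6 FPKM in GAT, against 58.1, 27.3 and 41.3 FPKM in Control. These ranges overlapped in all 3 comparisons, and the largest *GLK2* difference was 0.23 ± 0.27 in PBT/Control (adjusted p = 0.708). The locus name of *GLK2* is shared by another entry, which these values leave out. *LOC_Os06g43090*, described as similar to a wheat MYB1 factor, was at 51.0, 49.2 and 44.8 FPKM in PBT, at 65.8 and 65.2 FPKM in GAT libraries 1 and 3, and at 33.9 and 41.6 FPKM in Control libraries 1 and 3, while library 2 of both GAT and Control was listed at 0. Its estimates thus carried an SE of 1.84, and no comparison was called.

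*PHR3* (*LOC_Os02g04640*), of the family that drives the phosphate starvation response, was at 5.32, 4.96 and 7.47 FPKM in PBT and 10.2, 11.2 and 11.4 FPKM in GAT, against 7.27, 12.0 and 5.99 FPKM in Control. PBT lay below GAT, with −0.80 ± 0.26 in PBT/GAT (adjusted p = 0.0942). *MYB30* (*LOC_Os02g41510*), a repressor of beta-amylase genes in the cold, averaged 15.1 ± 3.0 FPKM in PBT and 9.95 ± 1.05 FPKM in GAT, against 17.5 ± 3.76 FPKM in Control (SD, n = 3 each). Its GAT libraries lay below Control with a log2 fold change of −0.74 ± 0.21 and an adjusted p of 0.0522. *MYB91* (*LOC_Os12g38400*), a factor of leaf development and salt tolerance, and *MID1* (*LOC_Os05g37060*), a factor of drought tolerance, averaged 1.11 and 1.51 FPKM over the 9 libraries and were called nowhere. Both were listed at 0 in at least 1 library, as were 14 of the 63 members. *LOC_Os02g09480*, named here after its values were seen, was the only further member past the adjusted p, at 0.67 ± 0.17 in GAT/Control (adjusted p = 0.0345), under the fold limit.

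The known MYB genes of rice reach beyond the members, since the table describes only some of them as MYB. Of 29 listed loci with a role in sugar, phosphate, wall, stress or development, 22 were tested, 9 of them members. The 3 sugar response genes *MYBS1*, *MYBS2* and *MYBS3* were not called in any comparison, nor were the 4 *PHR* genes. *MYB2* (*LOC_Os03g20090*), a factor of salt, cold and dehydration tolerance, was at 19.7, 84.4 and 71.5 FPKM in PBT and 4.02, 1.22 and 18.0 FPKM in GAT, against 61.2, 59.4 and 65.3 FPKM in Control. *MYB2* fell in GAT/Control by 3.40 on the log2 scale (SE 0.77, adjusted p = 0.0228), and all GAT libraries lay below the rest. It was also called in PBT/GAT, at 3.08 ± 0.77 (adjusted p = 0.0412). *GLK1* (*LOC_Os06g24070*), the partner of *GLK2* in chloroplast development, was at 44.7, 35.1 and 42.9 FPKM in PBT and 94.2, 92.6 and 76.2 FPKM in GAT, against 80.9, 86.3 and 92.1 FPKM in Control. It fell in PBT/Control by 1.07 (SE 0.14, adjusted p = 0.00301), with PBT below all other libraries. PBT/GAT was called too, at −1.08 ± 0.14 (adjusted p = 0.00211). The calls of *MYB2* and *GLK1* were not followed through the fits that left out 1 library. No other listed gene outside the members was called.

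Genes that act with or under MYB factors were taken from a list of 30 loci, of which 18 entries were tested. The list was chosen with earlier results of these data known. The study itself reports *CIPK15* and *RAmy3D* (there *OsAmy3D*) as higher under gibberellic acid in these libraries. The counts of called genes on the list are therefore description and not independent support. In GAT/Control 4 of the 18 were called, all higher, beside 8.42% of all tested entries. In PBT/Control 2 were called, both higher, beside 4.34%. The 2 calls of PBT/GAT were both lower, beside 6.3%. The alpha-amylase gene *RAmy3D*, which releases sugar from starch in low oxygen, was at 9.56, 8.79 and 13.0 FPKM in PBT and 22.6, 26.7 and 24.3 FPKM in GAT, against 1.20, 0.990 and 0.867 FPKM in Control. It rose in both sprays without overlap, by 3.66 ± 0.19 in GAT/Control (adjusted p = 1.31e-05) and 2.49 ± 0.19 in PBT/Control (adjusted p = 2.21e-04). *RAmy3D* was also called in PBT/GAT, at −1.17 ± 0.19 (adjusted p = 0.0065). *CIPK15*, the kinase above it, averaged 79.7 ± 6.87 FPKM in PBT and 138 ± 5.20 FPKM in GAT, against 51.6 ± 2.51 FPKM in Control (SD, n = 3 each). It was called in GAT/Control at 1.41 ± 0.11 (adjusted p = 8.37e-05). PBT/Control gave 0.61 ± 0.11 (adjusted p = 0.0117), short of the fold limit, with every PBT library above every Control library. PBT/GAT gave −0.79 ± 0.11 (adjusted p = 0.00271), also short of the fold limit. *MYBS1* itself, which links *CIPK15* and *RAmy3D*, was at 8.11, 9.59 and 12.1 FPKM in PBT and 25.6, 27.1 and 11.0 FPKM in GAT. Its Control libraries were at 16.1, 18.8 and 1.64 FPKM, with overlap in each comparison.

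Of the phosphate genes, 1 of 5 tested was called in at least 1 comparison, beside 12.3% of all tested entries. The called gene was the transporter *PT8*. It averaged 180 ± 3.60 FPKM in PBT and 106 ± 0.661 FPKM in GAT, against 46.4 ± 3.56 FPKM in Control (SD, n = 3 each). *PT8* rose by 1.17 ± 0.10 in GAT/Control (adjusted p = 1.39e-04) and 1.93 ± 0.10 in PBT/Control (adjusted p = 4.58e-05). The locus names of *PT8*, *CIPK15* and *RAmy3D* are shared by further entries, and the values given are of 1 entry each. Of 10 tested entries of lignin and phenylpropanoid synthesis, 1 was called in at least 1 comparison, a share near the 12.3% of all tested entries. The called gene was *C4H* (cinnamate 4-hydroxylase). *C4H* averaged 33.7 ± 2.1 FPKM in PBT and 79.9 ± 4.84 FPKM in GAT, against 37.1 ± 6.44 FPKM in Control (SD, n = 3 each). It rose by 1.10 ± 0.15 in GAT/Control (adjusted p = 0.00179) and was called in PBT/GAT at −1.22 ± 0.15 (adjusted p = 0.0015). The 3 secondary wall cellulose synthase genes and the 3 mitotic cyclins on the list were under 0.5 FPKM and were not tested, and the wall regulators *MYB61*, *MYB103L* and *MYB46* were under that level too. The median log2 fold change of the 18 entries was 0.19 for GAT against Control, 0.13 for PBT against Control and −0.12 for PBT against GAT.

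**Figure D4:**
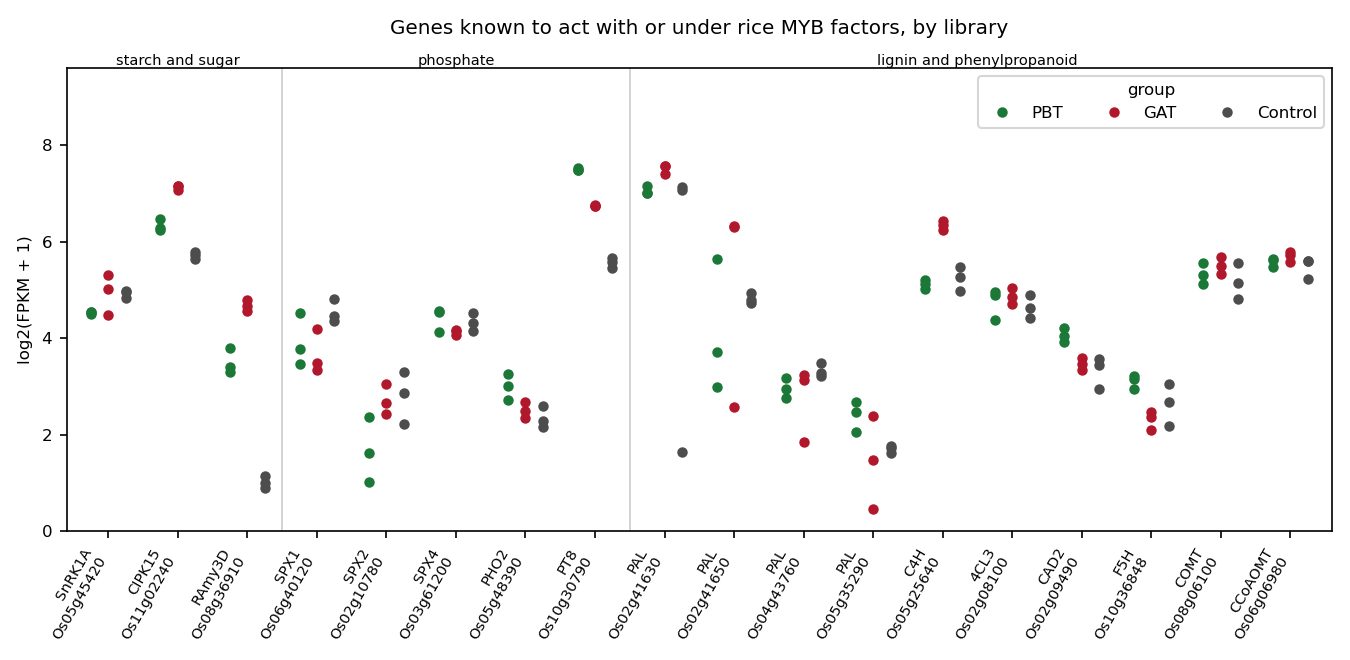
log2(FPKM + 1) of the 18 tested genes known to act with or under rice MYB factors, in 3 PBT, 3 GAT and 3 Control libraries per gene, left to right within each. Points are libraries. *CIPK15*, *RAmy3D* and *PT8* have all PBT and GAT points above Control, and *C4H* has GAT alone above. *PAL* LOC_Os02g41630 has 1 Control point at 2.13 FPKM beside others at 139 and 133 FPKM.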

How the data were processed

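RNA from leaves was sequenced in 9 libraries, 3 per group, named as biological triplicates in the study. By the methods of the study, reads were filtered for quality and adaptors, mapped with Tophat to the MSU rice genome and passed through Cufflinks. The deposited values are FPKM (fragments scaled to gene length and to the mapped fragments of a library) for each gene in each library, without pooling. Which program wrote these values was not checked. The submitters' processing notes also name Bowtie 0.12.2. No read counts were used, so the depth behind single values is unknown and 0 can be a failed estimate. Of the 9 single-library files, 4 hold another library's values, and only the table of the whole series was used. Groups follow its column names.

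log2(FPKM + 1) of the 22946 entries that averaged 0.5 FPKM or more was fitted with limma 3.58.1 (R 4.3.3) as 3 group means, with a variance trend and Benjamini-Hochberg adjustment per comparison over all entries. Cuffdiff, which the study used, cannot be run on FPKM. The scripts were tested on simulated data. Named genes are the DEGs, the listed known MYB genes and the 5 most abundant members. The members and lists were chosen with earlier results of these data known. Sequences and coordinates were not analysed here. Alternatives changed the pseudocount, filter, scaling, libraries, replicate block, variance model, limits, single values of 0 and entries that share a locus name.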

Additional observations from a re-analysis of the deposited data

How the results depend on the processing

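Over 24 alternatives, the 24 calls gave 502 estimates that stayed called and 68 that lost the call, and none that turned round. Of the 24 calls, 16 held in every fit that left out 1 library. The 8 others lost theirs in at least 1 such fit, as given beside each gene. With all libraries kept, an adjusted p under 0.01 ended 9 of the 24 calls, a pseudocount of 0.1 or no filter 4 each, and the fit of only the 2 groups compared 3. Besides those of *LOC_Os07g37210* and *LOC_Os02g46030* given above, no filter ended both calls of *MPS* (adjusted p = 0.0620 and 0.0744) and the PBT/Control call of *LOC_Os01g50720* (0.0504). The fit of only 2 groups ended PBT/Control for *LOC_Os01g50720* (0.0563) and PBT/GAT for *MPS* (0.130), which no variance trend also ended (0.0522), and a pseudocount of 0.1 ended PBT/Control for *LOC_Os05g07010* (0.0830). With libraries left out in turn, DEGs numbered 7 to 10 in GAT/Control, 4 to 7 in PBT/Control, 5 to 8 in PBT/GAT and 12 to 15 in any comparison. Over all 22946 entries, these fits called 920 to 1020 higher and 709 to 804 lower in GAT/Control. They called 466 to 672 higher and 229 to 341 lower in PBT/Control, and 577 to 757 higher and 486 to 631 lower in PBT/GAT. Partner genes called in GAT/Control numbered 3 to 4 in these fits. Median log2 fold changes ran from −0.01 to 0.11 in GAT/Control, −0.0311 to 0.12 in PBT/Control, −0.0724 to 0.16 in PBT/GAT. With a mean of at least 5 FPKM (32 members), the medians were 0.27, 0.12 and −0.0662 in these comparisons and there were 5 DEGs in PBT/GAT. Median scaling gave medians of 0.0601 in PBT/Control and 0.14 in PBT/GAT, and treating single values of 0 as missing gave 0 in PBT/GAT. An unadjusted p with the fold limit gave 15 DEGs in GAT/Control, 14 in PBT/GAT and 22 in any. No share of all tested entries was computed at this looser limit, so these DEG counts have no background beside them. An adjusted p under 0.01 gave 4 in PBT/Control and 5 in PBT/GAT, again with no share of all tested entries computed. Without the fold limit, 4 of the 18 partner genes were called in PBT/GAT, beside 9.37% of all tested entries. The cause was not tested.

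Replicate numbers did not pair the samples (same-number correlations −0.04 to 0.01, others −0.02 to 0.03). With the replicate block, there were 9 DEGs in GAT/Control, 6 for PBT/Control and 7 for PBT/GAT. Over all 22946 entries, the fit with the block called 917 higher and 683 lower in GAT/Control. It called 514 higher and 233 lower in PBT/Control, and 625 higher and 505 lower in PBT/GAT. The calls lost with the block were *LOC_Os05g07010* in PBT/Control (adjusted p = 0.0616) and *LOC_Os07g37210* in PBT/GAT (adjusted p = 0.0731).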
